A study of Mus musculus with 6 samples.

Results

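Genes of differentiating oligodendrocytes and of myelin were followed in mouse oligodendrocyte precursor cells after knockdown of Chd7, the gene of a chromatin remodeller that uses ATP. The set held 46 genes, listed by name and matched to the gene symbol of each array probe. Of these, 43 had a probe, with 48 probes in all, and 41 passed the detection filter and were tested among 17390 genes. They were ordered as 12 regulators, 9 genes of early differentiation, 8 genes of axon contact and signalling, and 17 late and myelin genes. Tmem2 was matched as Cemip2. Sip1 is an older name of several genes and was given no value, while Zeb2, also known by that name, was measured under its own symbol. Tmem88b and Enpp2 were not analysed here. Tcf7l2, the Wnt-pathway transcription factor of newly formed oligodendrocytes, lay above the detection limit on 1 of 6 arrays, and the zinc finger gene St18 on 0 of 6, so neither was tested.

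The cells came from forebrains of Jcl:ICR embryos at E15.5 and were kept in FGF2 and PDGF-AA throughout. Control cells received a control retrovirus (3 samples) and knockdown cells a Chd7 knockdown retrovirus (3 samples), and both were harvested 3 days after infection. Each sample had its own one-colour array. No label states that replicates were separate cultures. The p-values therefore cover the spread between these arrays alone, and that spread may be technical.

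Oligodendrocyte precursors divide in response to PDGF-AA and leave the cycle when they differentiate. Transcription factors such as Nkx2-2, Myrf and Zfp488 act in that step, premyelinating cells switch on early genes such as Bcas1 and Enpp6, and mature cells then make the proteins of compact myelin, such as Mbp and Mobp, and of the inner and outer membrane loops, such as Mag and Mog. FGF2 and PDGF-AA are used to hold cells in the precursor state, so the late genes were measured before terminal differentiation was induced. Whether some cells had begun to differentiate was not tested.

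All knockdown arrays had less Chd7 signal than any control array, with 54.3% of the control signal left on the brighter probe and 71.5% on the other. The brighter probe read 9.44, 9.20 and 9.47 (log2 intensity) in the controls, replicates 1 to 3 in order, against 8.54, 8.44 and 8.48 in the knockdown. Its log2 fold change was -0.88 (SE 0.0855, adjusted p = 0.00112 in limma), and that of the other probe was -0.48. The median probe signal per array was 83.4 to 89.4 against 58.9 to 61.9 for blank spots, and 87.0% to 89.8% of probes were detected. The precursor genes Pdgfra, Olig1, Olig2, Sox10 and Cspg4 were above the limit on all 6 arrays. Late genes were also detected: all 15 tested late and myelin genes, with Mbp, Mag, Mog and Mobp among them, were above the limit on all 6. Of 41 tested members 15 stayed below the median probe signal on every array. These dim probes are compressed on the scale used, so that their fold changes are understated. In bulk samples fewer cells of a type and less RNA per cell cannot be told apart.

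The promoter windows of members past the threshold are shown because these genes carry the comparison (RefSeq, GRCm38.p6, from 250 bases before to 50 after a transcript start, 5′ to 3′ on the gene's strand). Capitals mark CAGCTG (E-box), ACAAAG (SOX), CTGGCAC (MYRF) or CTTTGAT (TCF/LEF), each searched on both strands, and no matches overlapped. Bcas1 and Trf had no window. Where a gene had several, the one holding the gene's start in the gene table was taken; for Zfp488 that start lay outside the only window.
Cntn1, chr15:92050915-92051214, plus strand: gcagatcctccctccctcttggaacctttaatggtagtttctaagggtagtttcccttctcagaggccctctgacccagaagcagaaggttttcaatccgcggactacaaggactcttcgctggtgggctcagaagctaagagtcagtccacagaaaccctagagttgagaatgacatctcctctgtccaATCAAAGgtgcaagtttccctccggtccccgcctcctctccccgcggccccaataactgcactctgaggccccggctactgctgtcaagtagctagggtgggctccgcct
Myt1, chr2:181763082-181763381, plus strand: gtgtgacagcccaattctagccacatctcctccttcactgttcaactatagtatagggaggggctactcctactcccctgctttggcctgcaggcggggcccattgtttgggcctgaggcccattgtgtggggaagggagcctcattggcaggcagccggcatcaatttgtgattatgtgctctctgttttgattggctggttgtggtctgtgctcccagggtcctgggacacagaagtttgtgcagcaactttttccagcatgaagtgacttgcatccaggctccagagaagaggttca
Gpr37, chr6:25689931-25690230, minus strand: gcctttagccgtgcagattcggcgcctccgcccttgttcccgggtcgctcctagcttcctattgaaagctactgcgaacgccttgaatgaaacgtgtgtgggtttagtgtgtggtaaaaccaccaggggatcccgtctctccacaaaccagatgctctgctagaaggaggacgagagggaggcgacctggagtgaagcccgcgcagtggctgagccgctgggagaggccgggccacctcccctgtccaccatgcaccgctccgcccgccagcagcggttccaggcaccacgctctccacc
Zfp488, chr14:33978715-33979014, minus strand: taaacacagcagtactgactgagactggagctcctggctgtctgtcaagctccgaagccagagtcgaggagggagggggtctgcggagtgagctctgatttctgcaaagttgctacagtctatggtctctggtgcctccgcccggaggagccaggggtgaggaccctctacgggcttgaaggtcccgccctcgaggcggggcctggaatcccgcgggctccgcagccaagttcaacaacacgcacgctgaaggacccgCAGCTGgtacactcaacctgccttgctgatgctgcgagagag
The Cntn1 window held 1 TCF/LEF match and the Zfp488 window 1 E-box, while the windows of Myt1 and Gpr37 held none of these letters.

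A second set of windows belongs to 3 of the 6 myelin genes that varied together between same-numbered arrays, as described further on. They were chosen after their values were seen. Of the others, Mal and Mog had windows that held none of these letters and are not printed, and Mbp had no window.
Cnp, chr11:100574689-100574988, plus strand: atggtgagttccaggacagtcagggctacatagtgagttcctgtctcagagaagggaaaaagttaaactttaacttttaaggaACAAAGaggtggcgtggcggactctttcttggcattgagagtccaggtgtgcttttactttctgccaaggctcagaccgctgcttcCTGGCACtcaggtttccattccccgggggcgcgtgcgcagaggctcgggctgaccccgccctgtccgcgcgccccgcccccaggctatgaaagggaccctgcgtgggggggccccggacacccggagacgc
Mag, chr7:30914814-30915113, minus strand: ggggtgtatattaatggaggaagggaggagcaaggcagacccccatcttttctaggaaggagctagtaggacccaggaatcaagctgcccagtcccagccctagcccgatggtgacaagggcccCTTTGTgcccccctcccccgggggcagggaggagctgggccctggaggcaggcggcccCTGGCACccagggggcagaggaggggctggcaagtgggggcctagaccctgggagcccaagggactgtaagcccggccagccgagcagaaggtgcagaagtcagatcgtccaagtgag
Mobp, chr9:120149492-120149791, plus strand: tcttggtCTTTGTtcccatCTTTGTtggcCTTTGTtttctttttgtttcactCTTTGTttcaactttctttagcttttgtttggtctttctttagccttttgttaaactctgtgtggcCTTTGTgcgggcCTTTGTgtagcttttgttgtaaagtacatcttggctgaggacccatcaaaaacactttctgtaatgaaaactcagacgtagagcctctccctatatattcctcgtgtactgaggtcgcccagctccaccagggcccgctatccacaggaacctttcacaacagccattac
The Cnp and Mag windows each held 1 SOX and 1 MYRF match, and the Mobp window held 6 SOX matches. Among 34 members with a window, 6 held the E-box (17.6%, against 16.3% of all 32851 windows), 4 the SOX letters (11.8%, against 18.7%), 4 the MYRF letters (11.8%, against 5.01%) and 2 the TCF/LEF letters (5.88%, against 3.73%). Members were counted with 1 window each, while the 32851 windows include several for some genes, so these shares are over unlike units. A match is a description of the letters and not a binding site.

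Of the 41 tested members, 2 were higher and 4 lower in the knockdown at an adjusted p below 0.05 in limma, and 35 did not pass. Over all genes 4.49% passed as higher and 5.15% as lower. The iron carrier gene Trf and the receptor gene Gpr37 rose, and the early gene Bcas1, the adhesion gene Cntn1 and the transcription factor genes Myt1 and Zfp488 fell. In total 14.6% of tested members passed, against 9.64% of all genes. The groups did not overlap for 11 members (26.8%), against 29.9% of all genes. The median log2 fold change of the members was -0.0039, beside 0.0008 for all genes. Of the 41 values, 20 were positive and 21 negative.

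**Figure D1:**
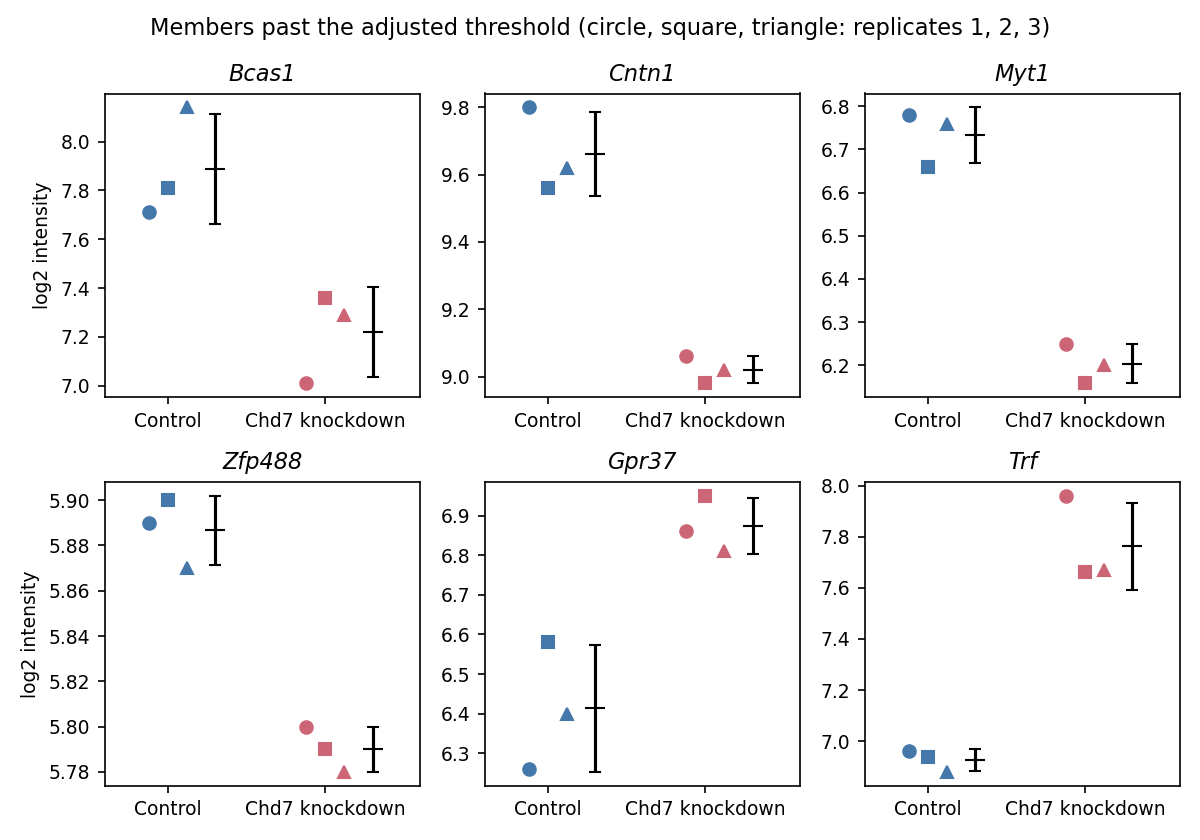
Log2 intensity of the 6 members past the threshold on each array (blue, control; red, knockdown; circle, square and triangle, replicates 1, 2 and 3), with the mean and SD of 3 arrays beside the points; each panel has its own axis, which does not start at 0. The groups do not overlap in any of the 6 panels, with Bcas1, Cntn1, Myt1 and Zfp488 lower and Gpr37 and Trf higher in the knockdown.

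Of the 9 tested regulators, 2 fell, none rose and 7 did not pass. The list's median was -0.09, and the groups did not overlap for 5 of the 9, all lower in the knockdown (15.4% of all genes were without overlap and lower).

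Myt1, a zinc finger transcription factor of precursors that is also made in developing neurons, read 6.78, 6.66 and 6.76 (log2 intensity) in the controls, replicates 1 to 3 in order, against 6.25, 6.16 and 6.20 in the knockdown. Each knockdown array was below each control array, with a narrow spread in both groups. The group means were 6.73 ± 0.067 and 6.20 ± 0.048 (SD, n = 3). Between them the log2 fold change was -0.53, with an SE of 0.0459 and an adjusted p = 7.16e-04. The value was -0.86 with a normexp offset of 16 and -0.81 in the authors' table, so that the size of the change varied with the scaling of the dim end.

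Zfp488, a corepressor that works with Olig2 in differentiation, read 5.89, 5.90 and 5.87 in the controls, against 5.80, 5.79 and 5.78 in the knockdown. The knockdown arrays were all lower, but the step was small and the probe dim. Its log2 fold change was -0.09 (SE 0.0160, adjusted p = 0.00873). It was -0.23 with an offset of 16, and did not pass in the authors' values (adjusted p = 0.0628) or without both arrays numbered 1 (0.0594).

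Nkx2-2, a homeodomain factor needed for timely differentiation, read 7.15, 7.24 and 7.24 in the controls, against 6.93, 7.06 and 7.05 in the knockdown. All knockdown arrays were lower, and the log2 fold change of -0.20 (95% interval -0.32 to -0.07) did not pass (adjusted p = 0.0584). With the replicate number as a block it did (adjusted p = 0.0273). The same held in the authors' values (0.0459), with array weights (0.039) and without the variance trend (0.0462).

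Qk, which encodes an RNA-binding protein that processes myelin transcripts, read 10.24, 10.28 and 10.40 in the controls, against 10.03, 10.14 and 9.98 in the knockdown. The groups were again apart, and the log2 fold change was -0.25 (95% interval -0.43 to -0.08, adjusted p = 0.0744). Without the variance trend Qk passed.

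Zfp24, a zinc finger factor that acts on myelin genes, read 8.53, 8.45 and 8.46 against 8.43, 8.35 and 8.10. Only knockdown replicate 3 lay well below the controls, and the value of -0.19 (95% interval -0.39 to 0.01) did not pass. Its other probe read -0.05.

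Myrf, the membrane-bound factor that drives myelin genes directly, read 6.12, 6.08 and 6.06 in the controls, against 6.03, 6.12 and 6.03 in the knockdown. The groups overlapped, with a log2 fold change of -0.03 (95% interval -0.10 to 0.05), on a dim probe. The remaining tested regulators Nkx6-1, Nkx6-2 and Zeb2 were dim as well, with log2 fold changes of 0.02, 0.02 and -0.0050, and the other Zeb2 probe read -0.04.

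**Figure D2:**
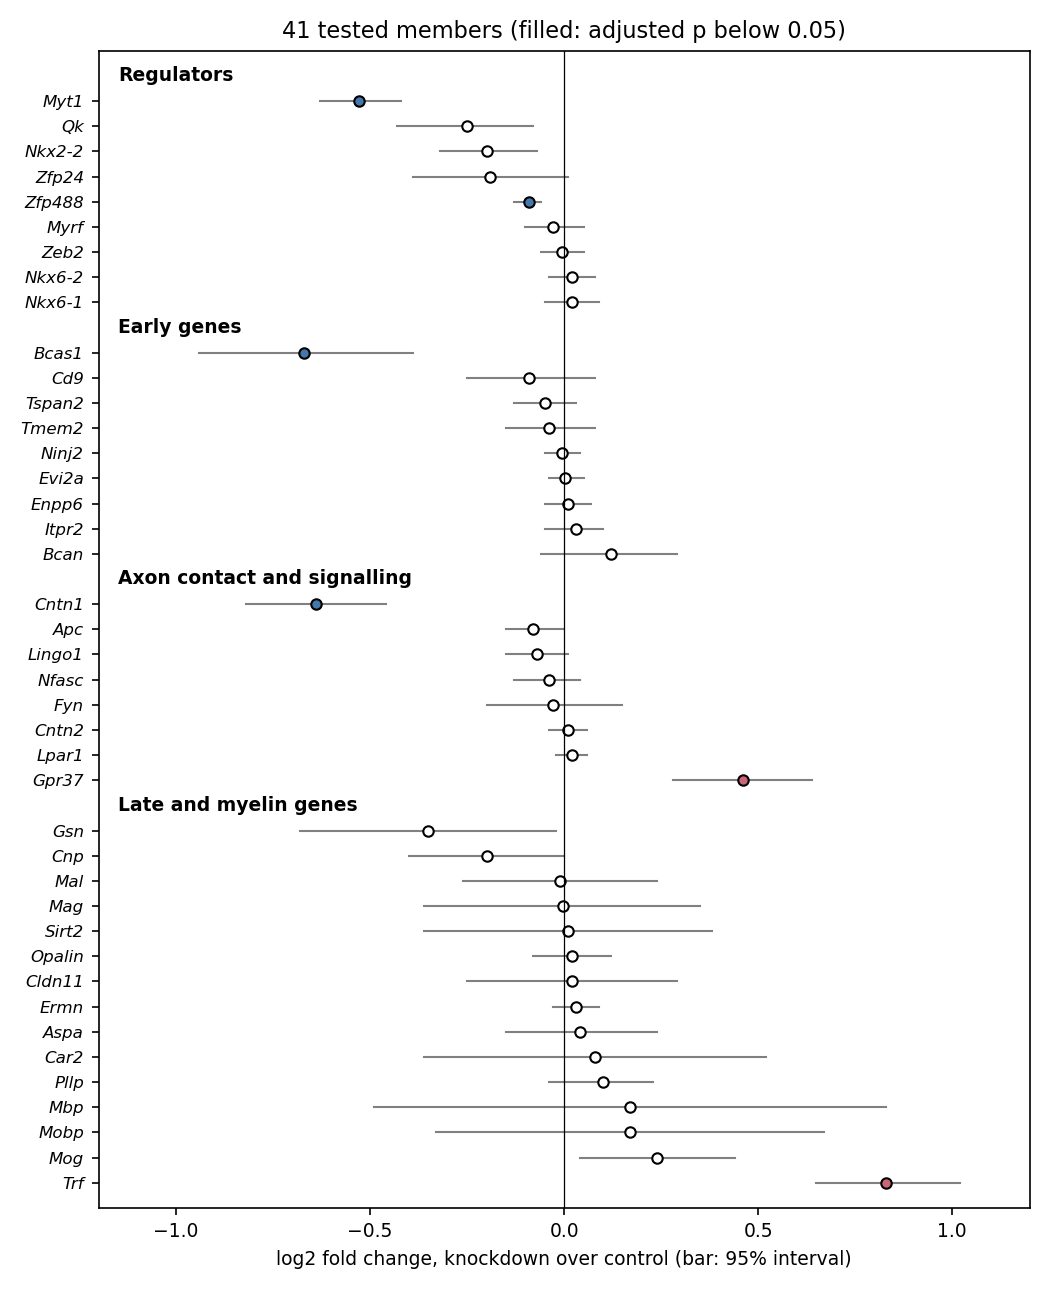
Log2 fold change of each of the 41 tested members, knockdown over control, with its 95% interval as a bar, grouped by role (filled points, adjusted p below 0.05). The intervals are from the fit without the replicate block. Most points lie close to 0, and the widest intervals belong to late genes such as Mbp (-0.49 to 0.83) and Mobp (-0.33 to 0.67).

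Of the 9 genes of early differentiation, 1 fell, none rose and 8 did not pass, with a median of -0.0043. Bcas1, which marks premyelinating and newly myelinating cells, read 7.71, 7.81 and 8.14 in the controls, against 7.01, 7.36 and 7.29 in the knockdown. Control replicate 3 was highest and knockdown replicate 1 lowest, and the groups did not overlap. The means were 7.89 ± 0.23 and 7.22 ± 0.19 (SD, n = 3). The change on the log2 scale was -0.67, with an SE of 0.123 and an adjusted p = 0.0119. The value ran from -0.75 to -0.54 when any 1 array was left out, and passed each time (adjusted p up to 0.0451).

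Bcan, a proteoglycan of the matrix around precursors, read 9.55, 9.49 and 9.47 in the controls, against 9.75, 9.57 and 9.54 in the knockdown. The arrays overlapped slightly, and the log2 fold change of 0.12 (95% interval -0.06 to 0.29) did not pass. The tetraspanin genes Cd9 and Tspan2 read -0.09 and -0.05, the hyaluronidase gene Tmem2 -0.04, the calcium channel gene Itpr2 0.03 and the choline phosphodiesterase gene Enpp6 0.01. Ninj2 stood at -0.0043 and Evi2a at 0.0021. Evi2a was above the detection limit on 3 of 6 arrays, and Enpp6, Itpr2, Ninj2 and Tspan2 were also dim on every array, so little can be said of these 5 genes at this signal.

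Of the 8 genes of axon contact and signalling, 1 rose, 1 fell and 6 did not pass, with a median of -0.03. Cntn1, an adhesion protein of glia and axons, read 9.80, 9.56 and 9.62 in the controls, against 9.06, 8.98 and 9.02 in the knockdown. The knockdown arrays lay close together and well below the controls. The means were 9.66 ± 0.12 and 9.02 ± 0.038 (SD, n = 3). This gave a log2 fold change of -0.64, with an SE of 0.0790 and an adjusted p = 0.00230.

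Gpr37, a receptor that restrains late differentiation, read 6.26, 6.58 and 6.40 in the controls, against 6.86, 6.95 and 6.81 in the knockdown. All knockdown arrays were higher, while the controls were spread. The means were 6.41 ± 0.16 and 6.87 ± 0.074 (SD, n = 3), and the log2 fold change was 0.46 (SE 0.0787, adjusted p = 0.00831), or 0.71 with an offset of 16. It passed without any 1 array (adjusted p up to 0.0353).

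The other genes of this group were close to their controls. The Wnt regulator gene Apc read -0.08 (95% interval -0.15 to 0.00) and the differentiation inhibitor gene Lingo1 -0.07 (-0.15 to 0.01). Nfasc, of the axon-glia junction, read -0.04, the Src-family kinase gene Fyn -0.03, the lysophosphatidic acid receptor gene Lpar1 0.02 and Cntn2 0.01, with -0.0062 on the other Cntn2 probe. Among these, Cntn2, Lpar1 and Nfasc were dim.

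Markers of other cell types were read beside these results, since Cntn1 and Myt1 are also made by neurons. For comparison, 14 precursor genes had a summed intensity of 15386 to 17753 in the controls and 12276 to 13446 in the knockdown. Sums over different genes do not give shares of cells. All 8 neuronal markers were detected on all 6 arrays, and their summed intensity was 1393 to 1549 in the controls and 1088 to 1300 in the knockdown. Of these, 3 fell: Dcx (-0.71), Elavl3 (-0.31, and -0.54 on its other probe) and Map2 (-0.12), while Snap25 read 0.01 and Rbfox3 0.0009. With the replicate number as a block Tubb3 (-0.20, adjusted p = 0.0330) passed as lower and Syt1 (0.20, adjusted p = 0.0170) as higher. The part of neuronal cells in the falls of Cntn1 and Myt1 was not tested. No astrocyte marker passed of 8, with sums of 14835 to 15392 and 14566 to 15370, but with the block Gja1 rose (0.44, adjusted p = 0.00897) and Slc1a2 fell (-0.47, adjusted p = 0.0163), whose other probe read 0.09 and did not pass. None of 7 microglial markers tested passed, with sums over 8 genes of 533 to 549 and 545 to 556. Of these 8 genes, 5 were detected on all 6 arrays. Among 8 vascular and meningeal markers, Cldn5 and Pecam1 were below the limit on most arrays, and none of the 6 tested passed (sums of 478 to 487 and 481 to 492). The 3 Schwann cell markers measured did not pass, with sums of 553 to 606 and 621 to 736, and with the block Pmp22 did (0.28, adjusted p = 0.0291).

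Of the 15 tested late and myelin genes, 1 rose, none fell and 14 did not pass. The median was 0.03, with 11 positive and 4 negative values, and the groups did not overlap for 2 genes, both higher (13.3%, against 29.9% of all genes in either direction and 14.5% higher).

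Trf, the transferrin gene, which mature oligodendrocytes express strongly, read 6.96, 6.94 and 6.88 in the controls, against 7.96, 7.66 and 7.67 in the knockdown. Knockdown replicate 1 was highest, and all 3 knockdown arrays stood far above the controls. The means were 6.93 ± 0.043 and 7.76 ± 0.17 (SD, n = 3). Their difference was a log2 fold change of 0.83, with an SE of 0.0827 and an adjusted p = 0.00120, which is 1.78 times the control signal. It was the largest change among the tested members in either direction.

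Gsn, the actin-severing protein gelsolin, read 9.67, 9.99 and 10.08 in the controls, against 9.26, 9.73 and 9.70 in the knockdown. Knockdown replicates 2 and 3 lay above control replicate 1, and the log2 fold change of -0.35 (95% interval -0.68 to -0.02) did not pass (adjusted p = 0.173). With the replicate block it did (adjusted p = 0.00977).

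Cnp, an enzyme that holds open the cytoplasmic channels of myelin, read 9.63, 9.87 and 9.73 in the controls, against 9.44, 9.66 and 9.54 in the knockdown. Each knockdown array was about equally far below the control of its number, by 0.19, 0.21 and 0.19, yet the groups overlapped. The log2 fold change of -0.20 (95% interval -0.40 to 0.00) did not pass, with the block either (adjusted p = 0.0794).

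Mbp, a main structural protein of compact myelin, read 7.21, 8.23 and 7.78 in the controls, against 7.42, 8.50 and 7.80 in the knockdown. The arrays numbered 2 were high and those numbered 1 low in both groups, and the groups overlapped almost fully. Without the replicate block the log2 fold change was 0.17 (SE 0.293, 95% interval -0.49 to 0.83, adjusted p = 0.780). That interval leaves room for changes in either direction, but its width includes the difference between numbers. The knockdown arrays exceeded the controls of their number by 0.21, 0.27 and 0.02. With the block the SE was 0.0662 at the same fold change, and Mbp did not pass (adjusted p = 0.125).

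Mobp, another compact myelin protein, read 5.95, 6.75 and 6.24 in the controls, against 6.11, 6.90 and 6.44 in the knockdown. Again the arrays numbered 2 were highest. The log2 fold change was 0.17 (95% interval -0.33 to 0.67, adjusted p = 0.686). Each knockdown array exceeded the control of its number, by 0.16, 0.15 and 0.21. The SE was 0.221 without the block and 0.0362 with it, and Mobp passed with the block (adjusted p = 0.0119).

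Mog, a glycoprotein of the outer myelin surface, read 6.46, 6.81 and 6.60 in the controls, against 6.75, 6.96 and 6.88 in the knockdown. The groups overlapped only through control replicate 2. The log2 fold change was 0.24 (95% interval 0.04 to 0.44, adjusted p = 0.137), and Mog passed with the block (adjusted p = 0.0112) and without control replicate 2. Its other probe read 5.78, 6.29 and 6.01 against 5.81, 6.42 and 6.01, a value of 0.05 that did not pass in either fit.

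Mag, an adhesion molecule of the inner myelin loop, read 6.28, 6.82 and 6.43 in the controls, against 6.21, 6.79 and 6.51 in the knockdown. Its log2 fold change was -0.0039 (95% interval -0.36 to 0.35, without the block). The SE was 0.158 without the block and 0.0432 with it, and Mag passed in neither fit. Cldn11, the tight junction protein of myelin, read 6.63, 7.18 and 6.96 against 6.84, 6.99 and 7.0, a value of 0.02 (-0.25 to 0.29). For both genes the arrays within a group differed more than the groups did.

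Opalin, a late transmembrane protein, read 5.90, 6.04 and 5.98 against 5.91, 6.01 and 6.05, a value of 0.02 (95% interval -0.08 to 0.12) on a dim probe. Pllp, a membrane protein of myelin, read 8.75, 8.77 and 8.74 against 8.85, 8.83 and 8.86. Its groups did not overlap and its spread was small, but the log2 fold change of 0.10 did not pass (adjusted p = 0.373), except without the variance trend. The remaining late genes did not pass: the carbonic anhydrase gene Car2 read 0.08, the aspartoacylase gene Aspa 0.04, the cytoskeletal gene Ermn 0.03 (-0.01 on its other probe), the deacetylase gene Sirt2 0.01 and the raft protein gene Mal -0.01.

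For 12 of the 15 late genes (80.0%, against 42.7% of all genes) the arrays numbered 2 and 1 differed more, as the mean of both groups, than the groups did. The exceptions were Trf (-0.16 between numbers, 0.83 between groups), Pllp and Ermn. The share was similar among the early genes, at 7 of 9 (77.8%), but both differences were small in those 7. Evi2a, for example, differed by 0.05 between numbers and 0.0021 between groups. The median difference between numbers 2 and 1 was 0.05 over the early genes and 0.27 over the late genes. The share was 3 of 9 (33.3%) among the regulators and 2 of 8 (25%) among the contact and signalling genes. Mbp was higher on the array numbered 2 than on that numbered 1 by 1.02 in the controls and 1.08 in the knockdown, against 0.17 between the groups. The corresponding differences were 0.80 and 0.79 for Mobp, 0.54 and 0.58 for Mag, 0.36 and 0.43 for Mal, and 0.35 and 0.21 for Mog. Car2 went the other way, by -0.75 and -0.58. Among the 15 late genes, 6 (Cnp, Mag, Mal, Mbp, Mobp and Mog) were lowest on the arrays numbered 1 and highest on those numbered 2 in both groups, which is 40.0%, against 3.11% of all genes. This order was noticed in the data and is a description. It held for 2 of 9 regulators, 1 of 9 early genes and none of 8 contact and signalling genes.

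**Figure D3:**
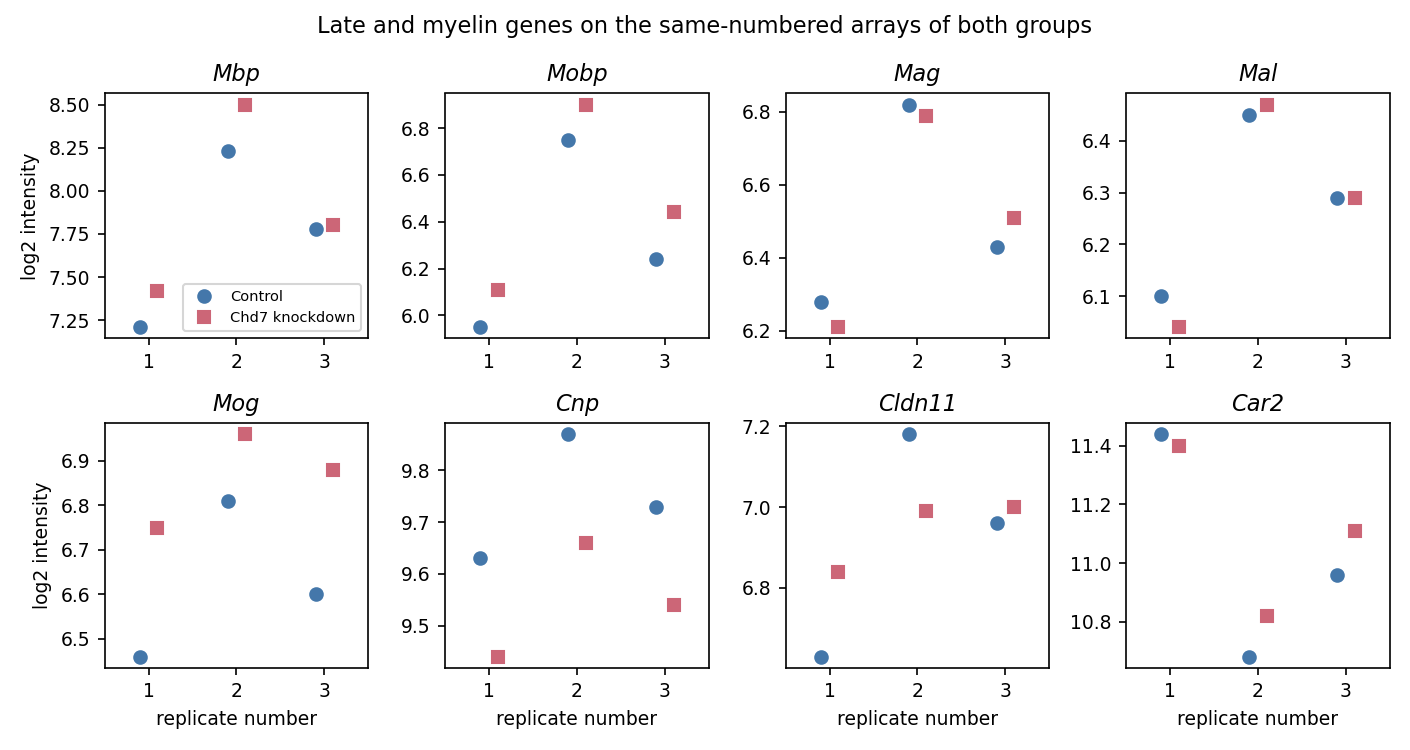
Log2 intensity of 8 late and myelin genes on the arrays of each replicate number (blue circles, control; red squares, knockdown); each panel has its own axis, which does not start at 0. In both groups Mbp, Mobp, Mag, Mal, Mog and Cnp are lowest at number 1 and highest at number 2, and Car2 shows the opposite order.

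The spread within groups put these genes near the top of the array. The pooled within-group SD was 0.530 for Mbp, 0.403 for Mobp, 0.339 for Car2 and 0.284 for Mag, above that of at least 98.9% of the tested genes, whose median was 0.0499. In contrast Zfp488, Pllp and Lpar1 had an SD of 0.0125, 0.0145 and 0.0151. The median SD was 0.198 over the late genes and 0.0503, 0.0537 and 0.0489 over the regulators, early genes and contact genes. It was 0.151 over the astrocyte markers, 0.111 over the neuronal markers and 0.109 over the genes listed as inhibitors of differentiation. A range of at least 0.3 in both groups was seen in 6 of 15 late genes (40.0%) and in 3 of 8 astrocyte markers (Aldh1l1, Gja1 and Slc1a2, 37.5%), against 2.73% of all genes. Of 13 precursor genes tested, 4 (C1ql1, Olig2, Pdgfra and Sox10) had the opposite order, highest at number 1 and lowest at number 2 in both groups, against 4.03% of all genes. No astrocyte or neuronal marker of 8 each showed either order. The gain slopes in the file headers were 0.467 and 0.466 for control replicates 1 and 2, and 0.478 and 0.464 for knockdown replicates 1 and 2. The part of other cells and of scanner gain in the late genes' pattern was not tested.

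With the replicate number as a block, 4 members rose (7.38% of all genes did) and 6 fell (7.44% of all genes), and 14.8% of all genes passed in that fit. The members gained were Mog and Mobp among those that rose and Gsn and Nkx2-2 among those that fell. All 6 members called without the block passed with it. The 3 same-numbered differences shared one sign in 48.2% of all genes.

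Other genes of the lineage were read for context. Among 24 further differentiation and myelin genes with a test, 2 were lower, 0 higher and 22 did not pass, with a median of 0.0013. Those that fell make myelin galactolipids: Gal3st1, the sulfotransferase, at -0.52 (adjusted p = 0.00238), and Ugt8a, the galactosyltransferase, at -0.54 (adjusted p = 0.0164). Sema4d, a semaphorin, read 0.16 and Bmp4, which opposes differentiation, -0.24, and neither passed without the replicate block. With it both did (adjusted p = 0.0427 and 0.0127), and so did Gjc3 (0.21), Cryab (0.31, and -0.05 on its other probe, which did not pass) and Arsg (0.11), which made 4 higher and 3 lower.

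Among 13 tested genes of the precursor state 6 fell and none rose, with a median of -0.25. With the replicate block Olig1 (-0.24, adjusted p = 0.0371) and Sox6 (-0.25, adjusted p = 0.0359) passed as well, which made 8 lower. The smallest p belonged to the growth factor receptor gene Pdgfra (-1.36), the NG2 proteoglycan gene Cspg4 (-0.48), Lhfpl3 (-0.96) and the AMPA receptor auxiliary gene Cacng4 (-0.52). The transcription factor genes Sox10 (-0.52, adjusted p = 0.00491 in limma) and Olig2 (-0.35, adjusted p = 0.0153) also fell without the block. Of 16 genes listed as inhibitors of differentiation, which share Sox5 and Sox6 with the precursor list, 4 fell and none rose, with a median of -0.09. The list was drawn up for context, and not every gene on it is an established inhibitor. Those that fell were Sox9 (-0.50), the Notch effector gene Hes5 (-0.78) and the HLH inhibitor genes Id2 (-0.74) and Id3 (-0.48). The block added Sox6 and Id4 (-0.36, adjusted p = 0.010), which made 6 lower. Lgr5, also on this list, read 0.03 and passed in neither fit. Its other probe read -0.09 and passed as lower in limma without the block (adjusted p = 0.024) and with it (0.0192). No test compared these lists with the late and myelin genes, of which 1 of 15 passed, as higher.

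**Figure D4:**
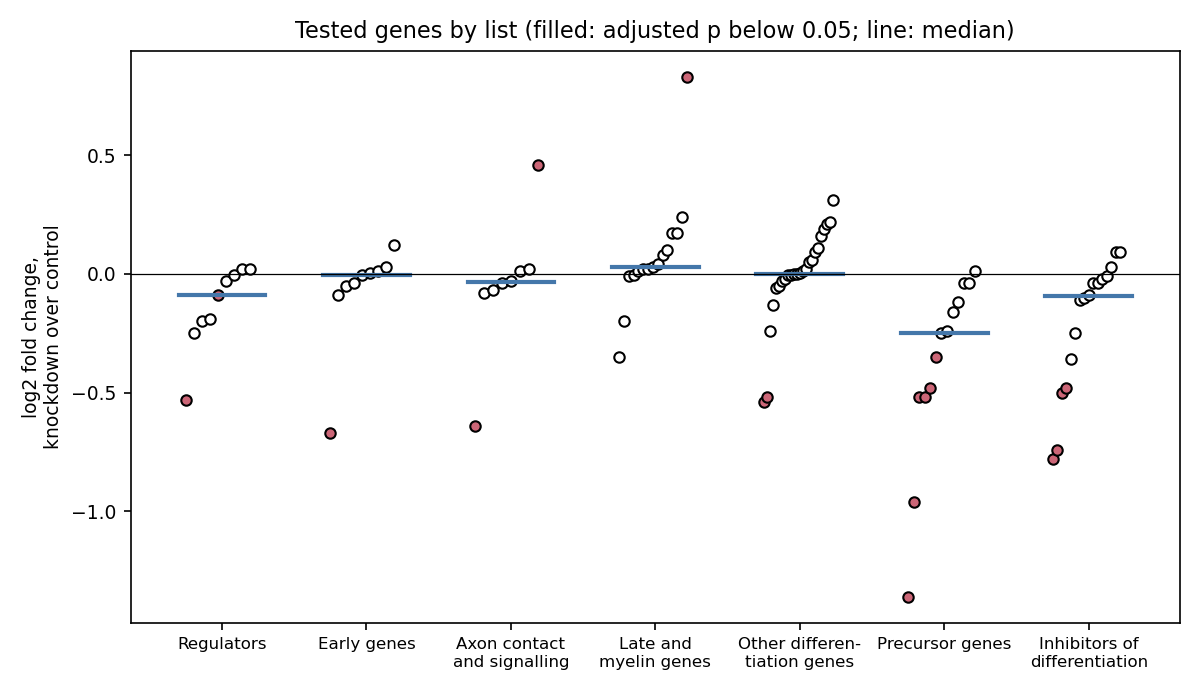
Log2 fold change of each tested gene, knockdown over control, by list (filled, adjusted p below 0.05; blue line, the list's median). The 4 member groups have medians between -0.09 and 0.03, the precursor genes a median of -0.25.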

How the data were processed

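Total RNA from 6 samples was amplified, coupled to Cy5 and hybridised to one-colour TORAY arrays, per the labels' protocols. The deposited intensity is the median spot signal at 635 nm, joined from 3 gains by least squares, per the file headers. A second deposited table holds the authors' scaled intensities as whole numbers; it followed the scanner signal less about the blank signal, multiplied so that the median was 25. No source states this. That table leaves 11289 values empty, and 11283 of them, undetected on the scanner, were set to 0.

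Signals were corrected with normexp (no local background, offset 50), then quantile normalized, and spots of a probe were averaged as log2 values (limma 3.58.1, R 4.3.3). A probe was tested if it exceeded the blank mean by 2 SD on at least 3 of 6 arrays. Each gene was represented by its brightest probe, and other probes come from a fit over 20957 probes. Symbols came from the platform annotation and a RefSeq gene table. Groups were compared with lmFit and eBayes with a trend, two-sided, with Benjamini-Hochberg adjustment over 17390 genes. Chd7, all members past the threshold, the 10 largest other changes and 10 chosen lineage genes are given in full, except Tcf7l2, which was not tested. Of context lists, at least 4 genes with the smallest p are given where any passed. Members and lists were chosen with earlier results of these data known. On simulated data for this comparison over 17390 genes, 73% of 1.5-fold and 96% of 2-fold changes were recovered with 9 false calls. These shares are not for the members. The late genes had a median within-group SD of 0.198, against 0.0499 for all genes, and 15 members were dim. The number of arrays limits the precision.

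The labels number the samples 1 to 3 in both groups. Residuals about the group means had correlations of 0.36, 0.38 and 0.23 for same-numbered samples, so the numbers were taken to pair the samples, from the data and not from the labels. Results of the replicate block stand beside each member and context gene whose call it changed, and those context genes were named after their values were seen. Other alternatives were the authors' table (log2 with a pseudocount of 16), cyclic loess, median scaling, an offset of 16, uncorrected signals, other filters, no variance trend, array weights, gain set and leaving out arrays. Figures were drawn with matplotlib 3.10.9.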

Additional observations from a re-analysis of the deposited data

How the results depend on the processing

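Of the 6 members called, Trf, Gpr37, Bcas1, Cntn1 and Myt1 passed in each alternative that used arrays of both gain sets and kept their direction in every alternative run. Zfp488 kept its direction and was lost as given above. Leaving out 1 array gave 2 to 3 members higher and 4 lower each time, while the genes called higher ran from 355 to 681 and those called lower from 395 to 772. Within the gain set of control replicates 1 and 2 with knockdown replicate 2, 0 members were higher and 0 lower (24 and 15 genes), and within the other set 0 were higher and 1 lower (10 and 29 genes). These fits have 2 arrays against 1, and assume for the single array the spread of the other group. With the replicate block 4 members were higher, and 1284 genes. In the authors' values 375 genes were higher, 33.0% of those called against 46.6%. Without both arrays numbered 1, 378 genes were higher and 422 lower. Many members near 0 changed sign between alternatives without a call, for example Sirt2 (-0.41 to 0.31) and Mbp (-0.16 to 0.78). Both ends of the Mbp range came from the fits within a gain set. Its sign changed in 3 of 21 alternatives, and in each of these the groups held arrays of different replicate numbers. Signal over background limits the 15 dim members.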
